A study of Mus musculus with 12 samples.

Results

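Brd2, Brd3, Ncor1 and Sirt1 were examined in H3K27ac ChIP-seq peak lists of mouse adipocyte progenitors lacking Azin2 and of wild-type cells. They are 4 of the 21631 protein-coding genes of the reference table on chromosomes 1 to 19 and X, and were chosen by name as genes of acetyl-lysine readers and of corepressors. Each locus was the GRCm38 span of the gene with 5 kb on each side. The H3K27ac mark, an acetyl group on lysine 27 of histone H3, is found at promoters and enhancers in use. Azin2 encodes antizyme inhibitor 2, a protein that relieves ornithine decarboxylase, the entry enzyme of polyamine synthesis, from its inhibitor antizyme.

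All libraries came from progenitors of subcutaneous fat, cultured for 1 week in high-glucose medium (4.5 g/l) with 10% serum. Both genotypes then had 2 days of insulin (5 µg/ml), the phosphodiesterase inhibitor IBMX (0.5 mM), dexamethasone (1 µM) and the PPARγ agonist rosiglitazone (1 µM), and 5 further days of insulin alone, with medium changed every 2 days. The Azin2-/- group held replicates 1, 2 and 8 and the wild-type group replicates 1, 2 and 2b, as numbered in the labels. The sources used here give no age or sex of the mice, no details of the Azin2 allele and no statement that replicates are separate animals. Every p-value therefore measures only the spread between these libraries. The question was whether acetylated chromatin at these genes differed between the genotypes.

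BET proteins such as BRD2 and BRD3 carry paired bromodomains that bind acetylated histone tails, and they help to bring the transcription elongation machinery to acetylated chromatin. NCOR1 is the scaffold of a corepressor complex that holds the deacetylase HDAC3 and docks on unliganded or repressed nuclear receptors, among them PPARγ, the central receptor of fat cell formation. SIRT1 is a deacetylase that consumes NAD+; it is known to associate with NCOR1 at PPARγ target genes and to restrain fat storage. The genes thus encode readers of histone acetylation on one side and parts of the machinery that removes it on the other.

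Each deposited list held 741843 to 1216000 peaks on these chromosomes, most of them weak, so the 30000 peaks of smallest p in each library were used. Read totals are not known. The deposited fold and p of each peak imply a number of fragments at its summit and a local background. The lowest background was between 0.125 fragments in wild-type replicate 1 and 0.957 in Azin2-/- replicate 8. Under the strongest peak of each of the 4 genes, local background was 4.51 to 11.2 fragments in Azin2-/- replicate 8. In the other libraries it was 0.222 to 2.35 fragments. Divided by the lowest background of the same library, it was 4.71 to 11.7 in Azin2-/- replicate 8 and 5.51 to 9.42 in wild-type replicate 2b. In the remaining libraries that ratio was 1.00 to 2.01. The Azin2 locus itself was covered over 870 to 1492 bp in the knockouts and over 1150 to 2426 bp in the wild-type libraries. Peaks carry no transcript level, and this cover checks neither genotype label. Among 10 progenitor markers 7 had a listed start, and of these only Zfp423 had a peak within 2 kb of it in all 6 libraries. Pdgfra had one in 5 libraries and Dpp4 in none. Among 10 adipocyte markers 8 had a listed start and only Cebpa was held in all 6, while Adipoq and Retn had no cover at all. Listed starts were available for 3 of 5 endothelial, 3 of 6 macrophage and leukocyte, 4 of 5 muscle and 1 of 4 neural markers, and none of these was held in all 6. Among them, Myog and Snap25 had no cover. Their summed cover was 2.5 to 5.63 kb in Azin2-/- and 0.78 to 5.07 kb in wild-type for endothelial markers, 2.06 to 2.61 and 0.771 to 1.53 kb for macrophage and leukocyte markers, 4.24 to 6.49 and 0 to 4.51 kb for muscle markers, and 2.86 to 9.51 and 3.88 to 10.2 kb for neural markers. For progenitor markers it was 9.61 to 23.3 and 12.6 to 19.1 kb, and for adipocyte markers 4.84 to 6.79 and 3.9 to 8.69 kb. These sums were not scaled to the total cover of each library, which ran from 16.9 Mb in wild-type replicate 1 to 28.9 Mb in Azin2-/- replicate 1. The part of these marker values in the results below was not tested.

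All 4 genes are transcribed from the minus strand, and every library had a peak of its 30000 strongest within 2 kb of a start of each. The DNA just upstream of 5 of these starts is shown because the acetylated regions joined over the 6 libraries take it in, although not every summit does: 6 of 6 summits lay in the stretch shown at Sirt1, 4 at Ncor1, 3 at Brd3, 2 at the outermost and 0 at the innermost Brd2 start. Each line gives the 250 bases before a start listed in the RefSeq promoter table (GRCm38.p6), read 5′ to 3′ on the minus strand. The stretches are Brd2 outermost start, chr17:34122608-34122857; Brd2 innermost start, chr17:34119901-34120150; Brd3, chr2:27475399-27475648; Ncor1 outermost start, chr11:62457333-62457582; and Sirt1, chr10:63339036-63339285. Capitals mark matches on either strand to 8 short motifs searched in the windows of 300 bases, and capitals that end a line continue past the start.
Brd2 outermost start: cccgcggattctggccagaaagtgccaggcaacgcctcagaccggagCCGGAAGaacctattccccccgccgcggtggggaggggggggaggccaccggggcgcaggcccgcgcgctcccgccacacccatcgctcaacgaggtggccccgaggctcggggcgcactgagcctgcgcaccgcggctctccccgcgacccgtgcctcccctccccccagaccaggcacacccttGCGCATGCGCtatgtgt
Brd2 innermost start: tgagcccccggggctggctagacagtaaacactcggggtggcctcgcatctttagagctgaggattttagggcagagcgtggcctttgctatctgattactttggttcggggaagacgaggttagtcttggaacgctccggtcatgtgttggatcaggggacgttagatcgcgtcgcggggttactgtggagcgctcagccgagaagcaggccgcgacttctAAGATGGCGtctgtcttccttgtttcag
Brd3: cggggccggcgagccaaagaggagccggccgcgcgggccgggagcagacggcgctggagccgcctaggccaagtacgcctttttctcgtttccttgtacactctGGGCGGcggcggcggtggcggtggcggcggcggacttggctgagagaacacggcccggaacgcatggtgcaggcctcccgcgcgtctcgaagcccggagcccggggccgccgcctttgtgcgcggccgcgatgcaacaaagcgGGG
Ncor1 outermost start: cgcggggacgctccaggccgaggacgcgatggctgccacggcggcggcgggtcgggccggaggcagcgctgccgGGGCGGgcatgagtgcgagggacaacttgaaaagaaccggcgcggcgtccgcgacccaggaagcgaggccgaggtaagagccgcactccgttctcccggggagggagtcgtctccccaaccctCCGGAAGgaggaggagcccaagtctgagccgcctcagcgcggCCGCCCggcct
Sirt1: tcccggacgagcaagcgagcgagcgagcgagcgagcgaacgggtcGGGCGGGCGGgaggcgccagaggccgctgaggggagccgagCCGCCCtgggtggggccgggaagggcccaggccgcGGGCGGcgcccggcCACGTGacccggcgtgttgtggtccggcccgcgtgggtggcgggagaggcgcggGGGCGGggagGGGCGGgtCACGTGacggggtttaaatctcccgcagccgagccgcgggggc

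All but the innermost Brd2 window were rich in G and C. The 300 bases from 250 before to 50 after the start held 79% G and C at Sirt1, 75% at Brd3 and 72.3% at both Ncor1 and the outermost start of Brd2. These shares were at or above those of 98.3%, 95.2% and 91.9% of the 21045 such windows of protein-coding genes. The count of CG dinucleotides over that expected from base content was 1.09 at Sirt1, 1.1 at Brd3, 0.951 at Ncor1 and 0.818 at the outermost start of Brd2. The innermost start of Brd2 had 58.7% G and C, at or above 57.4% of windows and near their median of 56.7%, and a CG ratio of 0.938. A middle start of Brd2 and an inner start of Ncor1 are also listed, and the latter differed from the rest, with 38.3% G and C and a ratio of 0.182.

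The GC box GGGCGG, the site of SP-family factors, is common and was in 46.7% of all windows. Sirt1 held 7 matches to it, of which 2 overlap, while Brd3 and Ncor1 held 2 each and the outermost start of Brd2 none. Sirt1 was the only one of the windows shown to hold the E-box CACGTG, at 115 and 43 bases before the start. That motif was in 7.91% of all windows. The outermost start of Brd2 held the palindromic core bound by NRF1, which begins 17 bases before the start and is in 1.34% of windows. The YY1 core AAGATGGCG was at 28 bases before the innermost start of Brd2 and at base 26 of the Ncor1 transcript, and was in 1.84% of windows. CCGGAAG, an ETS core, lay 203 bases before the outermost start of Brd2 and 53 before that of Ncor1, and was in 11.7% of windows. None of the windows shown held CCAAT (38.5% of windows), TATAAA (12.7%) or TGACGTCA (2.26%). These matches describe the letters and are not evidence of binding.

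A peak of the 30000 strongest lay within 2 kb of a listed start in all 6 libraries at Brd2, Brd3, Ncor1 and Sirt1, that is at 4 of 4 genes. The same held for 3364 of 17274 protein-coding genes with a listed start, or 19.5%. Among the 5000 strongest peaks, where 4.25% of genes were held by all 6, Ncor1 was still held by 6 libraries, Brd2 and Brd3 by 5 and Sirt1 by 2. At the authors' q of 0.01 or less Brd2, Brd3 and Ncor1 were held by 6 libraries and Sirt1 by 5. The exception was wild-type replicate 1, whose Sirt1 peak had a deposited q of 0.0942 and an implied 3 fragments at the summit.

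**Figure D1:**
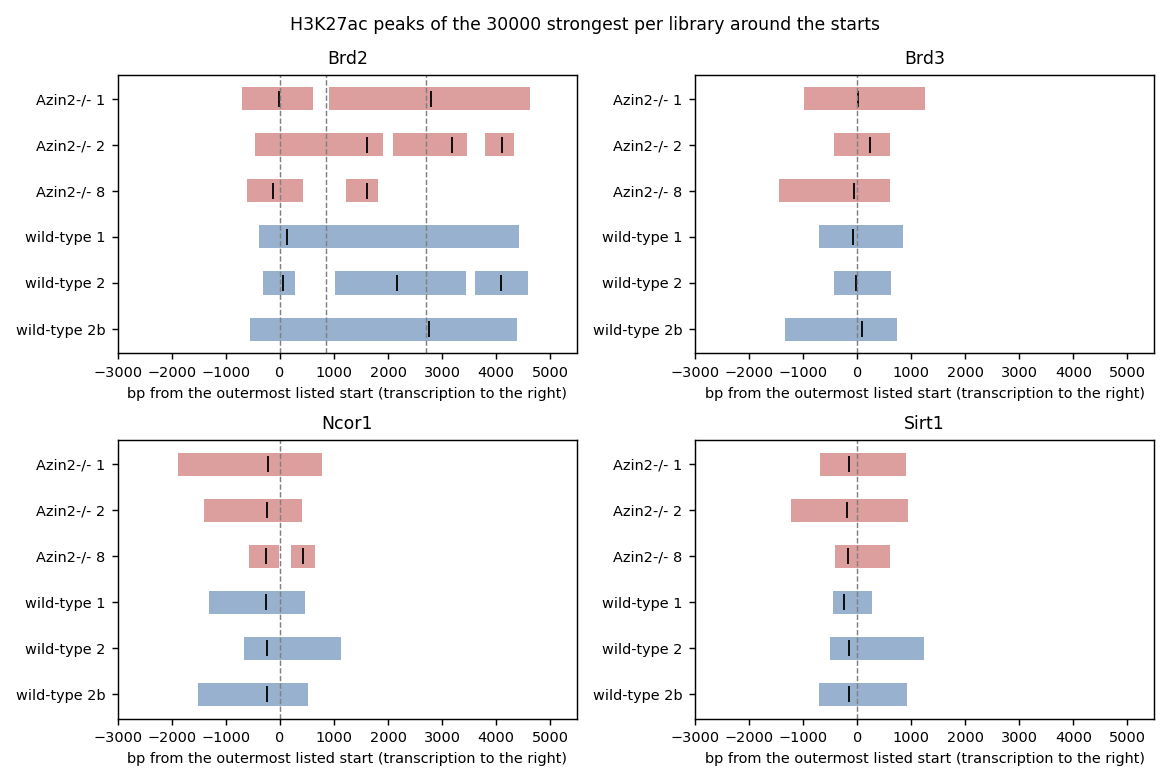
Peaks of the 30000 strongest per library around the outermost listed start of each gene, which is at 0, with transcription to the right. Bars are peaks in each library (red Azin2-/-, blue wild-type), black ticks are summits and dashed lines are listed starts; each gene has a peak within 2 kb of a start in all 6 libraries, the Brd2 peaks reach over 3 starts, and the Ncor1 summits line up within 43 bp.

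Brd2, which encodes a ubiquitous BET reader, had the longest acetylated stretch of the 4 genes. It spans chromosome 17 from 34112019 to 34122814, and its listed starts are at 34119900, 34121747 and 34122607. Peaks of the 6 libraries joined into 1 region of 5314 bp, from 34117989 to 34123302, that takes in all 3 starts. In wild-type replicates 1 and 2b this was a single peak of 4811 and 4949 bp. Azin2-/- replicate 1 had 2 peaks there, of 3706 and 1299 bp, and Azin2-/- replicate 2 and wild-type replicate 2 had 3 each. Azin2-/- replicate 8 had 2 short ones, of 602 and 1034 bp. The H2-DMa gene, which encodes a chaperone of MHC class II antigen loading, starts 225 bp away on the other strand and overlaps Brd2, so the region cannot be assigned to Brd2 alone.

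The strongest Brd2 summit did not sit at the same start in every library. It was at the outermost start, within 127 bp, in Azin2-/- replicates 1 and 8 and wild-type replicate 1. In wild-type replicate 2b it lay 56 bp inside the transcript that begins at the innermost start. In Azin2-/- replicate 2 and wild-type replicate 2 it lay 1396 and 1390 bp beyond that start, 6 bp apart from each other at 34118504 and 34118510. Each of these placements but that of wild-type replicate 2b thus occurred in both genotypes. The strongest peak ranked 2159, 1314 and 821 in Azin2-/- replicates 1, 2 and 8 and 742, 4694 and 1549 in wild-type replicates 1, 2 and 2b, where rank 1 is the smallest p of a library.

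Over the Brd2 locus, peaks covered 5005, 4610 and 1636 bp in Azin2-/- replicates 1, 2 and 8, and 4811, 4759 and 4949 bp in wild-type replicates 1, 2 and 2b. Only Azin2-/- replicate 8 fell well below the others, and the genotypes overlapped. After each library was scaled to the same total cover, the mean was 3518 ± 1529 bp for Azin2-/- against 5263 ± 1276 bp for wild-type (SD, n = 3). The log2 difference, Azin2-/- minus wild-type and with 500 bp added to each value, was -0.58 with a 95% interval from -1.45 to 0.29 (limma adjusted p = 0.794 over all loci). Without Azin2-/- replicate 8 it was -0.22.

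The Brd2 difference was largest in size at the innermost start. Within 2 kb of it peaks covered 3706, 3118 and 602 bp in Azin2-/- replicates 1, 2 and 8 and 3715, 3393 and 3681 bp in wild-type replicates 1, 2 and 2b. Over all deposited peaks, weak ones included, Azin2-/- replicate 8 had 2925 bp there and the other libraries 3118 to 3715 bp. The log2 difference of scaled cover, with 200 bp added, was -0.94 at the innermost start (95% interval -2.0 to 0.12, limma adjusted p = 0.681). It was -0.35 at the middle start and -0.15 at the outermost start (limma adjusted p = 0.732 and 0.875). The 3 windows overlap and share peaks. At the innermost start the value was -0.30 without Azin2-/- replicate 8. Local background under the strongest Brd2 peak was 7.18 fragments in that library and 0.251 to 2.35 in the others. Divided by the lowest background of the same library, it was 7.50 in Azin2-/- replicate 8 and 9.42 in wild-type replicate 2b. That ratio was 1.11 to 2.01 in the remaining libraries. The part of local background in the result was not tested.

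Brd3, the second BET gene, was acetylated at a start inside its annotated span. The span runs on chromosome 2 from 27445576 to 27507657, but the one start in the promoter table, at 27475398, lies 32259 bp from the upstream end. All 6 libraries had their strongest peak over this start, in a joint region from 27474148 to 27476840. The summits lay 23, 247 and 92 bp inside the transcript in replicates 1 and 2 of Azin2-/- and 2b of wild-type. They lay 55, 70 and 26 bp before it in replicate 8 of Azin2-/- and 1 and 2 of wild-type. Within 2 kb of the end of the span, by contrast, only wild-type replicate 2b had a peak, of rank 28650.

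The Brd3 start peak ranked 2332, 5725 and 672 in Azin2-/- replicates 1, 2 and 8 and 890, 480 and 3742 in wild-type replicates 1, 2 and 2b. Ranks of the genotypes interleaved. Its cover within 2 kb of the start was 2228, 1033 and 2045 bp in Azin2-/- replicates 1, 2 and 8 and 1542, 1054 and 2067 bp in wild-type replicates 1, 2 and 2b. Replicate 2 of each genotype was thus the narrow one, near 1 kb. The log2 difference at the start was 0.02 (95% interval -0.69 to 0.73, limma adjusted p = 0.993).

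Brd3 also had peaks away from its start, none of them in more than 2 libraries among the 30000 strongest. A peak at the start of Brd3os, a gene past the downstream end of Brd3, from 27441832 to 27443565, was in Azin2-/- replicates 1 and 8, and all 6 libraries had some deposited peak there. A stretch from 27486594 to 27487475, about 11.6 kb upstream of the listed start, was held by 1 library of each genotype (Azin2-/- 1 and wild-type 2b). Its summit had an implied 6 fragments in Azin2-/- replicate 1 (q of 9.5e-06) and 3 in wild-type replicate 2b (q of 0.0634). Among the 30000 strongest, 2 peaks 15.5 and 17.8 kb inside the gene were in wild-type replicate 1 alone. Each had an implied 3 fragments at the summit and a q of 0.0131. The whole locus had 4466, 1033 and 3082 bp in Azin2-/- replicates 1, 2 and 8 and 2506, 1054 and 3282 bp in wild-type replicates 1, 2 and 2b. The scaled means were 2680 ± 1407 and 2433 ± 1197 bp (SD, n = 3), with a log2 difference of 0.09 (95% interval -0.95 to 1.13, limma adjusted p = 0.975).

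Ncor1, the scaffold of the corepressor complex, had the most sharply placed peak. It spans chromosome 11 from 62315663 to 62457414 with starts listed at 62457332 and 62438515. The strongest summit was 214, 239 and 257 bp before the outermost start in Azin2-/- replicates 1, 2 and 8 and 251, 244 and 239 bp before it in wild-type replicates 1, 2 and 2b. The 6 summits fell within 43 bp. Of the 3364 genes held at a start by all 6 libraries, 56, or 1.66%, had summits within as short a stretch, where the median was 256 bp. The corresponding stretch was 89 bp at Sirt1 and 317 bp at Brd3, shared or undercut by 13.1% and 58.8% of these genes. At Brd2, taken like every gene at the listed start with the shortest stretch, it was 2882 bp, shared or undercut by 99.4%. Of the Ncor1 summits 4 lie in the 250 bases shown above. Pigl, an enzyme gene of GPI anchor synthesis, starts 1109 bp away on the other strand, so the summits lie between 2 divergent starts. The strongest peak ran over both starts in every library but wild-type replicate 2 and Azin2-/- replicate 8. In the former it reached only the Ncor1 start, and in the latter it lay between the 2. The acetylated region thus cannot be assigned to Ncor1 alone.

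The Ncor1 peak ranked 3677, 1229 and 245 in Azin2-/- replicates 1, 2 and 8 and 2026, 1814 and 217 in wild-type replicates 1, 2 and 2b. Within 2 kb of the outermost start, cover was 2677, 1827 and 1009 bp in Azin2-/- replicates 1, 2 and 8 and 1771, 1783 and 2028 bp in wild-type replicates 1, 2 and 2b. Before scaling, Azin2-/- replicates 1 and 8 were the highest and the lowest, with all wild-type libraries between them. After scaling to equal total cover, wild-type replicate 1 was the highest (2442 bp) and Azin2-/- replicate 8 the lowest (1110 bp), with Azin2-/- replicate 1 at 2152 bp. The log2 difference there was -0.23 (95% interval -0.83 to 0.37, limma adjusted p = 0.807), and it was 0.02 without Azin2-/- replicate 8. The inner start at 62438515 had no peak of the 30000 strongest in any library.

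At Ncor1 the whole locus had the other sign than its start. In 5 libraries the start peak was the only one of the 30000 strongest at the locus. Azin2-/- replicate 8 had 4 further peaks inside the gene, from 6.45 to 80.4 kb past the start, which brought its cover to 3732 bp. Of these 4, those at 62376567, 62443845 and 62450647 had a deposited q between 0.0704 and 0.0803, and that at 62401968 to 62402303 had 0.00377. Scaled locus means were 2711 ± 1216 bp for Azin2-/- against 2006 ± 392 bp for wild-type (SD, n = 3), with a log2 difference of 0.31 (95% interval -0.49 to 1.10, limma adjusted p = 0.885). Without Azin2-/- replicate 8 that difference was 0.01.

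Sirt1, the NAD+-dependent deacetylase gene, had the weakest start peak of the 4 by median rank. It spans chromosome 10 from 63319005 to 63339035, and its start is the upstream end. The summits lay before the start in every library, by 147, 195 and 176 bp in Azin2-/- replicates 1, 2 and 8 and by 236, 155 and 154 bp in wild-type replicates 1, 2 and 2b. All 6 fall within the 250 bases shown above. That of wild-type replicate 1 lay upstream of the outermost GC box, which begins 205 bases before the start. The start peak ranked 6151, 4727 and 6167 in Azin2-/- replicates 1, 2 and 8 and 22913, 2384 and 5348 in wild-type replicates 1, 2 and 2b. Wild-type replicates thus held both the highest and the lowest place.

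Within 2 kb of the Sirt1 start, cover was 1601, 2175 and 1033 bp in Azin2-/- replicates 1, 2 and 8 and 724, 1751 and 1620 bp in wild-type replicates 1, 2 and 2b. The groups overlapped. The log2 difference was 0.11 (95% interval -0.61 to 0.84, limma adjusted p = 0.942). With the 15000 and 10000 strongest peaks it was 0.96 and 0.99, and at the authors' q of 0.05 or less and 0.01 or less it was 0.78 and 0.85. In those 4 lists wild-type replicate 1 had no peak at the start, and limma called none of these differences. The locus added a single weak peak of 337 bp in Azin2-/- replicate 8, inside the neighbouring gene Herc4. Its scaled means were 1675 ± 494 and 1400 ± 431 bp (SD, n = 3), and its log2 difference was 0.20 (95% interval -0.62 to 1.01, limma adjusted p = 0.928), or 0.61 and 0.64 with the 15000 and 10000 strongest peaks.

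**Figure D2:**
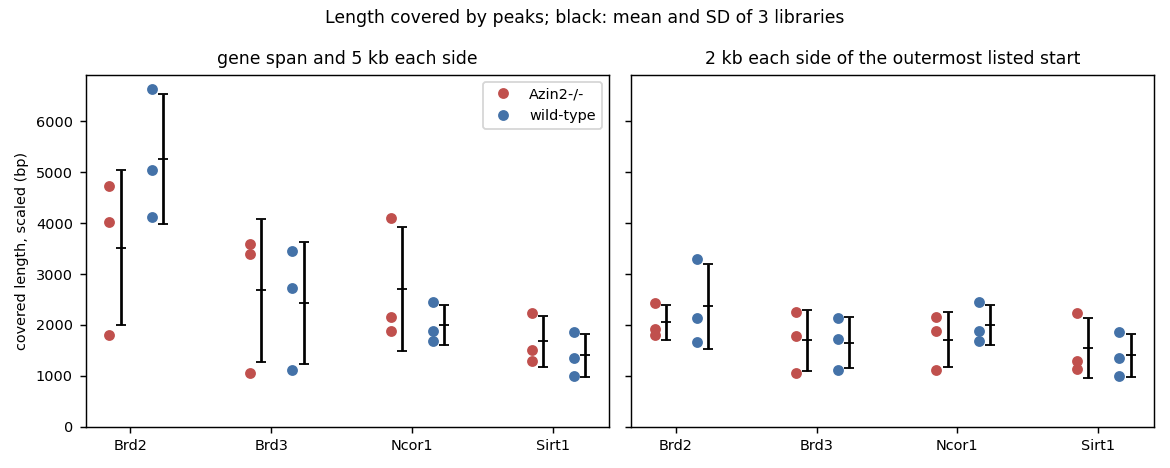
Length covered by peaks (bp), each library scaled to the same total cover, in the whole locus (left) and within 2 kb of the outermost listed start (right). Points are libraries and black bars the mean and SD of 3; the genotypes overlap at every gene in both panels, and the lowest Brd2 and the highest Ncor1 locus values, 1800 and 4106 bp, both belong to Azin2-/- replicate 8.

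In windows of equal length, 2 kb on each side of the outermost start, the order of scaled cover over the 6 libraries was Brd2 (2209 ± 596 bp), Ncor1 (1859 ± 451 bp), Brd3 (1677 ± 498 bp) and Sirt1 (1476 ± 471 bp; SD, n = 6 libraries for each). Neighbours in this order differed by less than their spread. Brd2 exceeded Ncor1 in 4 of 6 libraries, Ncor1 exceeded Brd3 in 4 and Brd3 exceeded Sirt1 in 4, and Brd2 exceeded Sirt1 in 5.

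None of the 4 genes passed the test between genotypes. The limma test called 0 of 11670 loci at an adjusted p under 0.05, a share of 0%, and at an unadjusted p under 0.05 there were 506 higher and 249 lower loci, none of them a member. Libraries of the genotypes lay apart, without overlap, at 1359 of the tested loci (11.6%), and at 0 of the 4 members. For starts the test called 0 of 9910, with 327 higher and 210 lower at an unadjusted p under 0.05 and 11.6% without overlap. For gene ends it called 0 of 12208, with 480 and 212 at an unadjusted p under 0.05. The intervals above leave room for changes of the members in either direction, so these data do not show equal acetylation.

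Ranks of the strongest peak differed as little. The mean rank was 1431 ± 677 in Azin2-/- and 2328 ± 2088 in wild-type at Brd2, 2910 ± 2576 and 1704 ± 1777 at Brd3, 1717 ± 1767 and 1352 ± 989 at Ncor1, and 5682 ± 827 and 10215 ± 11096 at Sirt1 (SD, n = 3). Two-sided exact permutation p-values were 0.7, 0.6, 0.8 and 0.9 in that order, in a design whose smallest p is 0.1. At Sirt1 the difference in mean rank was -4533 over all libraries and 1816 without wild-type replicate 1. Some places also moved where peaks were ordered by the deposited fold ratio instead of p. The best place at Sirt1 went from 6167 to 19950 in Azin2-/- replicate 8, but only from 22913 to 22968 in wild-type replicate 1. At Ncor1 it went from 245 to 1506 in Azin2-/- replicate 8 and from 217 to 155 in wild-type replicate 2b. In Azin2-/- replicate 8 it went from 821 to 2767 at Brd2 and from 672 to 738 at Brd3.

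**Figure D3:**
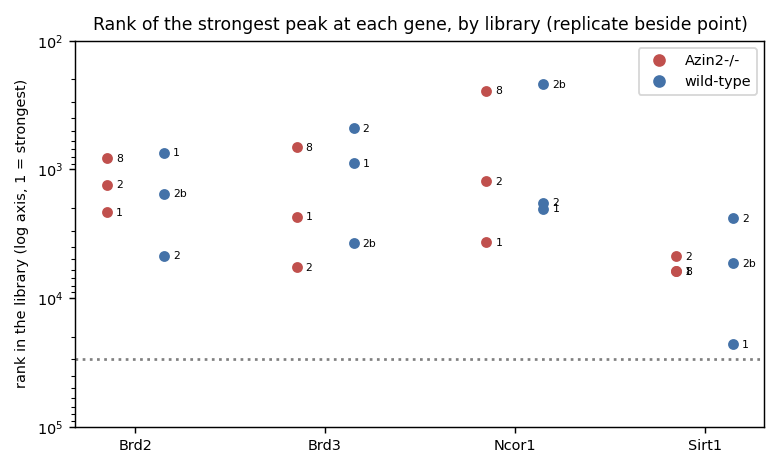
Rank of the strongest peak of each gene among the 30000 strongest peaks of each library, on a reversed log axis with rank 1 towards the top and a dotted line at 30000. Points are libraries, with the replicate beside them; red and blue interleave at each gene, ranks at Ncor1 reach 217 and 245, and the Sirt1 peak of wild-type replicate 1 stands alone at 22913.

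The other BET genes and the elongation factor genes they work with did not pass the test either. Of 11 genes in this list 9 were tested and 0 were called in either direction, with 6 of 9 positive and a median log2 difference of 0.11, beside 0.07 over all genes tested. Brdt, the BET gene of the male germ line, differed by 0.46 on the log2 scale, Mepce, which caps the 7SK RNA, by -0.16 and Jmjd6 by -0.12. Cdk9, the kinase that BET proteins help to recruit, and Jmjd6 had a start peak in all 6 libraries. Ccnt2 and Hexim1 had too little cover to be tested.

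Of 17 genes of the NCOR complex and its partners, receptors among them, 16 were tested and 0 were called, with 8 of 16 positive and a median log2 difference of -0.01. Hdac3, the deacetylase held by NCOR1, had 2475 ± 394 bp for Azin2-/- against 870 ± 199 bp for wild-type (SD, n = 3), without overlap and with a log2 difference of 1.12 (limma adjusted p = 0.743). Bcl6, a repressor that binds NCOR1, had 1365 ± 111 against 4370 ± 2253 bp (SD, n = 3), also without overlap and with a log2 difference of -1.25 (limma adjusted p = 0.743). Genotypes lay without overlap at 11.6% of all tested loci. Pparg differed by 0.91 and Rara by -0.70. Tbl1xr1, Bcl6, Nr1d2, Thrb and Rara had a start peak in all 6 libraries, and Nr1d1 could not be tested.

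Of 21 sirtuin and NAD supply genes 13 were tested and 0 were called, with 7 of 13 positive and a median of 0.08. Nnmt, which methylates nicotinamide, had 129 ± 223 bp for Azin2-/- against 984 ± 493 bp for wild-type (SD, n = 3). The genotypes lay without overlap, as at 11.6% of all tested loci, with a log2 difference of -1.24 (limma adjusted p = 0.778). Nmnat2, an NAD synthase of neurons, differed by -0.47, Sirt5 by 0.47 and Nmnat3 by 0.44. Nampt, the rate-limiting enzyme of NAD salvage, Nmrk1, Parp1 and Foxo1 had a start peak in all 6 libraries. Sirt6, Sirt7 and Rps19bp1 had no cover in any library, and Sirt3, Naprt, Nadsyn1, Nmrk2 and Cd38 had too little to be tested.

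The 4 members did not share a pattern over the libraries. Pearson's r of log2 scaled locus cover over the 6 libraries ran from -0.88 between Brd3 and Sirt1 to 0.50 between Brd3 and Ncor1. Among tested genes on other chromosomes, those most like Brd2 were Hdgf and Ube2q1 (r = 0.997 and 0.996), those most like Brd3 were Rita1 and Ddx17 (0.996 and 0.993), those most like Ncor1 were Mylk4 and Dedd (0.984 and 0.982), and those most like Sirt1 were Col22a1 and Ccdc88c (0.984 and 0.975). With 6 libraries, and 10697 to 11105 genes compared, these values are a description: 16 to 49 genes had an r over 0.95 with each member. Hdgf and Ube2q1 had no cover in Azin2-/- replicate 8, the library of lowest Brd2 cover. Rita1 had none in Azin2-/- replicate 2 and wild-type replicate 2, the libraries of lowest Brd3 cover.

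**Figure D4:**
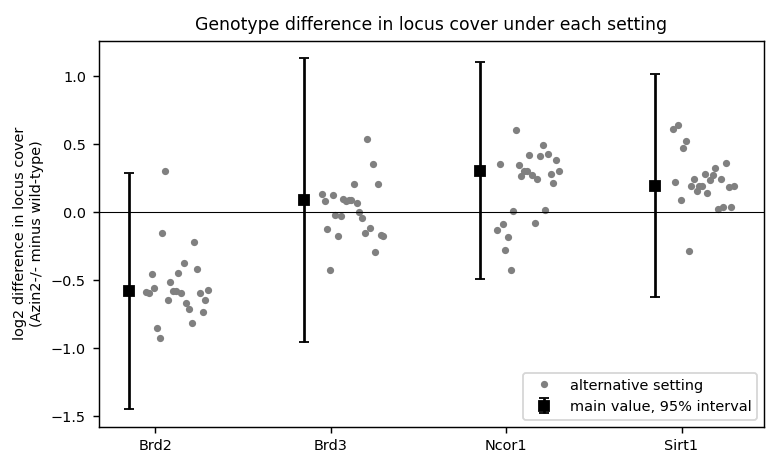
Log2 difference in locus cover, Azin2-/- minus wild-type, for each gene: the black square is the main value with its 95% interval and grey points are the 24 alternative settings. Every interval takes in 0; Brd2 lies below 0 except with fixed windows (0.30), Sirt1 above 0 except with all deposited peaks (-0.29), and Brd3 and Ncor1 lie on both sides.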

How the data were processed

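The samples are 6 H3K27ac ChIP-seq libraries, 3 per genotype; the 6 input libraries were not analysed here. The authors deposited 1 peak list per library on GRCm38 (mm10), per the submitters' processing notes; the sources used here name no aligner, peak caller or control. Per peak, the deposited columns hold a score (10 times the -log10 p, cut to a whole number), a fold ratio, p and q (both as -log10 of the p-value or q-value) and a summit. These are the authors' values and only rank, filter or describe peaks within a list. Fold and p imply whole fragment numbers if the fold has a pseudocount of 1: 100% of the main peaks with a -log10 p under 200 gave one within 0.001 on the -log10 scale, and 0.39 to 2.3% after a small random shift.

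Here the 30000 peaks of smallest p per library were kept, and covered length per gene span with 5 kb each side, per gene end and per listed start with 2 kb each side was divided by the library's total relative to the mean total. The log2 of cover plus 500 bp (loci) or 200 bp (ends, starts) was tested with limma 3.58.1 in R 4.3.3 (mean trend, Benjamini-Hochberg over all features of a mean of at least 500 or 200 bp). Loci and ends were planned; starts were added after the data were examined, because the Brd3 start lies inside its span. The script was tested on simulated data. Motifs were chosen after the sequences were seen. Genes named besides the members are, per list, the 2 of smallest p in each direction and those not testable, and per member the 2 of highest r; H2-DMa, Pigl, Herc4 and Brd3os are neighbours, and Cdk9, Nampt and the genes given as held at a start in all 6 libraries were added after their values were seen. Some genes of the lists count in them but are not reported here by name. The members and lists were chosen with earlier results of these data known. Alternatives were other list lengths, q thresholds, pseudocounts, minimums, scalings, windows, a replicate block, averaged wild-type replicates 2 and 2b, and each library left out. For ranks, the order by the deposited fold ratio was also used.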

Additional observations from a re-analysis of the deposited data

How the results depend on the processing

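No member passed limma's threshold under any of the alternatives run; the lowest adjusted p was 0.568 for a locus, at Brd2, and 0.546 for a start. Counts of calls over all features, 0 in the main test, were 22 higher and 4 lower loci at a q of 0.01 or less. Where each peak was replaced by 250 bp either side of its summit (fixed windows) they were 43 and 16 loci, 249 and 14 ends, and 188 and 9 starts. With fixed windows cover mostly follows the number of peaks, so the spread between libraries can be close to none. The standard error at the Brd3 and Sirt1 starts was then 0.0011, against 0.32 in the main fit. Calls under that setting are therefore not read as genotype differences. The median log2 difference over all ends was 0.12, against 0.24 with no scaling and -0.02 with median scaling. Without a change of sign, the Sirt1 end and start reached 0.96 and 0.99 with the 15000 and 10000 strongest peaks, the Brd2 locus -0.93 at a q of 0.01 or less and -0.15 with all deposited peaks, the innermost Brd2 start -1.88 with the 5000 strongest and -0.25 with all deposited peaks, the Ncor1 locus 0.60 with fixed windows and the Ncor1 start -0.60 at a q of 0.01 or less. The signs of the members were not stable, and the causes were not tested.

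The Brd2 locus difference turned to 0.30 with fixed windows, and that of Sirt1 to -0.29 with all deposited peaks. Brd3 turned with the 10000 (-0.12) and 5000 (-0.42) strongest peaks, a q of 0.01 or less (-0.023), all deposited peaks (-0.17), fixed windows (-0.031), averaged wild-type replicates (-0.043), no flank (-0.16) and a flank of 10 kb (-0.17). Ncor1 turned with the 15000, 10000 and 5000 strongest peaks (-0.13, -0.086 and -0.28) and under q limits of 0.05 (-0.19) and 0.01 (-0.43). Leaving out 1 library each time gave -0.81 to -0.22 at Brd2, -0.29 to 0.54 at Brd3, 0.01 to 0.49 at Ncor1 and 0.02 to 0.36 at Sirt1. Brd3 turned without Azin2-/- replicate 1 or 8 or wild-type replicate 2.

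At the upstream end of the span, the main differences were -0.08 for Brd2, -0.23 for Ncor1 and 0.11 for Sirt1. Brd2 turned with the 15000, 10000 and 5000 strongest peaks (0.13, 0.17 and 0.84), all deposited peaks (0.020), fixed windows (0.78), no scaling (0.048) and 1 kb windows (0.095), Ncor1 with fixed windows (0.26), and Sirt1 with median scaling (-0.034). Leave-one-out ranges were -0.15 to 0.31 at Sirt1, -0.41 to 0.017 at Ncor1 and -0.30 to 0.17 at Brd2. At the starts, Brd3 turned with the 15000 (-0.0053) and 5000 (-0.75) strongest peaks, a q of 0.05 (-0.19) or 0.01 (-0.33) or less, median scaling (-0.031), averaged replicates (-0.070) and 1 kb windows (-0.062), and Ncor1 with fixed windows (0.26). The Brd2 outermost start turned with the 15000, 10000 and 5000 strongest peaks (0.024, 0.070 and 0.79), fixed windows (0.81) and 1 kb windows (0.057), its middle start with the 5000 strongest (0.52) and fixed windows (0.30), and its innermost with fixed windows (0.77). Leave-one-out ranges there were -0.21 to 0.29 at Brd3, -0.15 to 0.31 at Sirt1, -0.41 to 0.017 at Ncor1, -1.29 to -0.30 at Brd2 (innermost), -0.35 to 0.098 at Brd2 (outermost) and -0.52 to -0.12 at Brd2 (middle). The sign turned at the Sirt1 start without Azin2-/- replicate 2 or wild-type replicate 1, at Ncor1 without Azin2-/- replicate 8, at the Brd2 outermost start without wild-type replicate 1, and at Brd3 without Azin2-/- replicate 1 or 8 or wild-type replicate 2. For the difference in rank the ranges were -1690 to 286 at Brd2, -202 to 2324 at Brd3, -615 to 1101 at Ncor1 and -8449 to 1816 at Sirt1. There the sign turned without wild-type replicate 2 (Brd2), Azin2-/- replicate 2 (Brd3), Azin2-/- replicate 1 or wild-type replicate 2b (Ncor1) and wild-type replicate 1 (Sirt1).

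Replicate numbers 1 and 2 occur in both genotypes but are not said to pair the samples. The correlation of deviations from the genotype means was -0.04 for number 1 and 0.12 for number 2. With the replicate block the locus differences were -0.37 at Brd2, -0.0020 at Brd3, -0.080 at Ncor1 and 0.23 at Sirt1, the Brd3 start was at -0.14, and 0 loci, ends or starts were called. Azin2-/- replicate 8 and wild-type replicate 2b have no counterpart of the same number. The block differences thus rest on replicates 1 and 2 of each genotype, with 1 residual degree of freedom. Among the strongest peaks of the members, the smallest implied summit, that of Sirt1 in wild-type replicate 1, was 3 fragments. Some weaker Brd3 peaks in wild-type replicates 1 and 2b had as few. Read depth was not known.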
